A study of Homo sapiens with 2 samples.

Results

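The expressed antisense transcripts are the genes annotated as antisense RNAs for which at least 100 reads were counted over both libraries together. GAS5, ZFAS1 and the SNHG genes, which host small nucleolar RNAs, were left out by name and took 5 rows with them. The members were thus chosen by their read counts summed over both libraries, so their levels are a description and not a result. The rule left 165 genes out of 5583 antisense genes and 58735 genes in all. RNA came from NCI-H460, an established human large cell lung carcinoma line labelled as lung, pleural effusion. The control culture, of genotype WT and labelled siControl, was transfected without an siRNA against CYP4F11, and the labels name no control sequence. The other, of genotype CYP4F11 knockdown and labelled siCYP4F11, received an siRNA that targets CYP4F11, a cytochrome P450 that hydroxylates lipids, and the libraries refer to 24 h after transfection. Each group had 1 library, so no difference below has a replicate check and no p-value is given.

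An antisense transcript is made from the strand opposite to a protein-coding gene, its partner here. Many start beside the partner's own promoter and run the other way, because promoters in CpG-rich DNA often fire in both directions. Others lie inside the partner or meet its far end. Some act on neighbouring genes on the same chromosome, KCNQ1OT1 being the textbook case, some host microRNAs, and for most no function is known. Many RNAs of this kind are short-lived, because the nuclear exosome and its adaptors destroy them soon after they are made.

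The siRNA target checked the labels. CYP4F11 had 3180 reads in siControl and 972 in siCYP4F11, a log2 ratio of siCYP4F11 over siControl of -1.40 with a 95% counting interval of -1.51 to -1.30. All ratios here were taken after scaling to library size, and all intervals cover counting error only. The libraries held 16207785 and 13002179 reads, siControl first. Epithelial markers had a summed level of 3483 and 2902 CPM (counts scaled to library size), with 3 of 5 at a mean of at least 1 CPM. All 3 endothelial markers were at 0. Of 4 leukocyte markers PTPRC and CD3E were at 0 and the other 2 had few reads, summing to 0.0619 and 0.153 CPM. The 4 fibroblast markers summed to 73.2 and 82.2 CPM. The 4 lung adenocarcinoma markers summed to 0.496 and 1.15 CPM and the 3 squamous ones, with KRT6A at 0, to 0.0619 and 0.306 CPM. The part of these in the antisense values was not tested.

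How reads over overlapping genes were counted bears on every antisense value. The libraries were prepared strand-specifically, but the strand setting of the counting is not stated in these sources. The table held 761 genes whose exon bases were all covered by exons of genes on the other strand, and 0 of them had a read in either library. These included 324 antisense genes and 18 protein-coding genes, and for 224 of them the covering gene had over 1000 reads. Of 1139 genes wholly covered by exons on their own strand, 3 had a read. Among antisense genes with no same-strand overlap, the share with a read was 44.5% of the 2374 without exon overlap on the other strand. It was 62.0% with up to 25% of exon bases covered, then 56.5% and 52.0% in the next bins, and 30.5% of the 203 with over 75% but not all covered. The table thus treated cover by the other strand like cover by the same strand. Reads over shared exon bases are missing from these counts, and reads in an antisense exon cannot be told apart from unspliced RNA of the gene on the other strand.

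**Figure D1:**
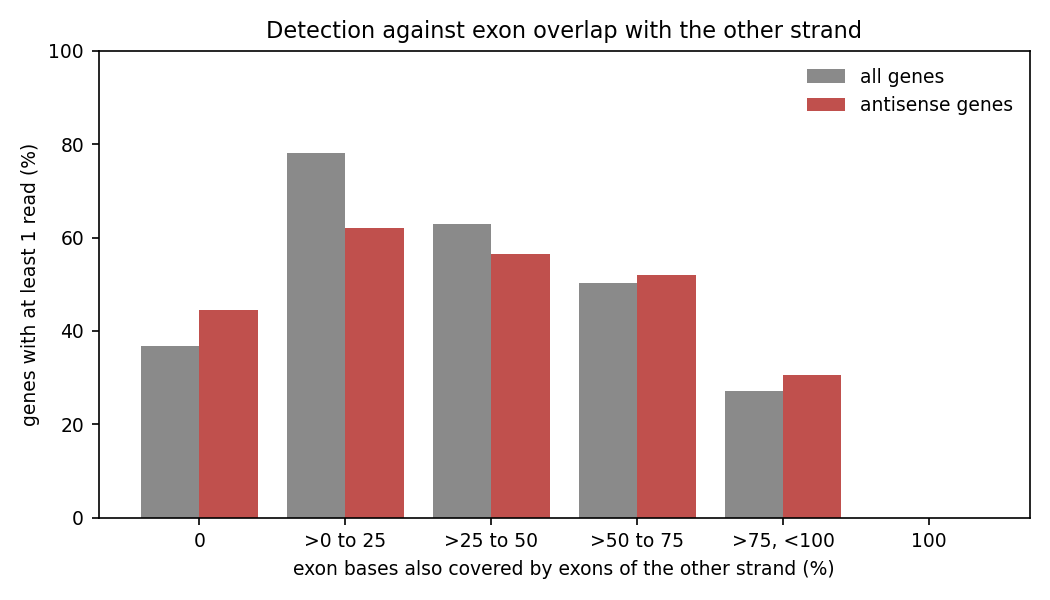
Share of genes with at least 1 read in either library (vertical axis, %) against the share of their exon bases also covered by exons of the other strand (horizontal axis, 6 bins), for all genes and for antisense genes without same-strand exon overlap. The bars end at 0 for the 710 genes, 316 of them antisense, that are wholly covered.

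Exons of the other strand covered part of 114 of the 165 transcripts, and same-strand exons of another gene covered part of 18. For levels per length, only the exon bases free of other genes' exons were used. The 165 transcripts took 0.188% of the reads in siControl and 0.188% in siCYP4F11. Their median level was 6.88 CPM in siControl and 6.89 CPM in siCYP4F11, against 33.7 and 34.1 CPM over all 11636 genes with the same count minimum. Their median exon length was 2850 bases over 4 exons, against 5355 bases over 11 exons for protein-coding genes and 2618 bases over 3 exons for the 173 lincRNAs. At the count minimum itself stood SREBF2-AS1 with 57 and 43 reads and ZNF529-AS1 with 55 and 45, siControl first, while AC245452.1 with 55 and 44 stayed just outside.

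By level the members were very unequal. AL365181.3, an antisense gene of 1 exon inside BCAN (which encodes brevican, a matrix proteoglycan), had 3574 reads in siControl and 2813 in siCYP4F11. Per kilobase of free exon it stood at 76.5 and 74.5 CPM, against 10.1 and 8.29 for BCAN itself. The lowest was KCNQ1OT1, at 0.061 and 0.026 CPM per kilobase over 90544 free bases. Of the 165 transcripts, 23 had over 500 reads in all and the other 142 had 100 to 500.

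As a group the antisense transcripts lay close to 0. Their median log2 ratio was 0.0004, with 83 above 0 and 82 below, and the middle 50% lay between -0.22 and 0.21. The median over all 11636 genes with the same minimum was -0.002, over lincRNAs -0.02 and over protein-coding genes -0.001. Of the 165, 143 lay within 0.5 of 0 on the log2 scale. A gene was called by size past 2-fold, a log2 ratio of 1 or more either way, provided its interval excluded 0. This held for 0 higher and 1 lower transcripts, 0.606% of the members, against 0.352% of all genes with the same minimum (0.0688% higher and 0.284% lower). Over genes with 100 to 500 reads it was 0.89% (0.201% higher, 0.689% lower), and over genes with a mean of at least 1 CPM 1.96% (0.703% higher, 1.26% lower). The single called member was KCNQ1OT1.

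The interval excluded 0, at any size of ratio, for 42 members, 19 higher and 23 lower, which is 25.5%. Over all genes with the same minimum this was 42.4%, and over the 3484 genes with 100 to 500 reads, where most members lie, 25.5%. The shares higher and lower were 21.1% and 21.2% with the minimum alone, 11.4% and 14% with 100 to 500 reads, and 18.6% and 19.2% of the 37.8% with a mean of at least 1 CPM. The median GC content of the transcript was 45.8% for the 19 higher members and 51.2% for the 23 lower ones. Across the 165 the log2 ratio and GC content had a Spearman correlation of -0.25, against -0.38 across all 11636 genes, as descriptions of points that share both libraries. After a lowess correction of the ratios for GC content, intervals excluded 0 for 19 higher and 20 lower members, of which 35 were among the 42. At a lower bar of 1.5-fold, 7 members were higher and 8 lower with intervals excluding 0, 9.09% of the members. That share was 3.57% over all genes with the same minimum and 9.5% over genes with 100 to 500 reads. The members thus stood near genes with 100 to 500 reads, where most of them lie.

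**Figure D2:**
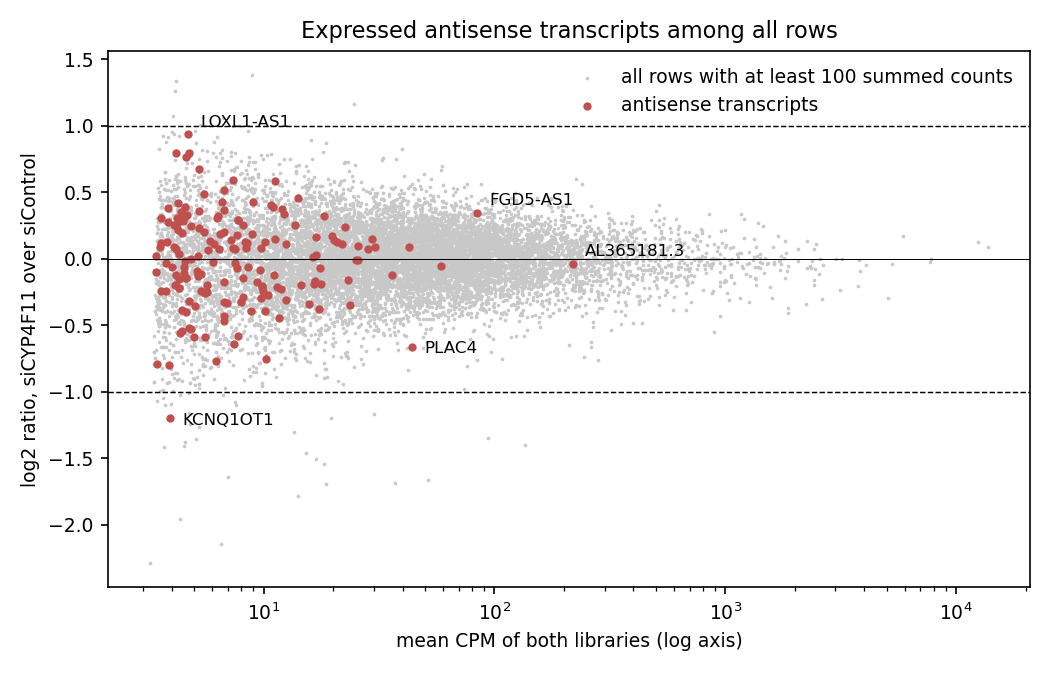
Log2 ratio of siCYP4F11 over siControl (vertical axis) against mean CPM of both libraries (horizontal log axis) for the 165 antisense transcripts and all 11636 genes with at least 100 summed reads, with dashed lines at 2-fold. KCNQ1OT1 alone among the antisense transcripts lies past a dashed line, at -1.20, and most members sit at the low end of the level axis, where ratios of all genes spread widest.

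KCNQ1OT1 is a long unspliced RNA of an imprinted region, made from the paternal copy, where it keeps neighbouring genes silent. It occupies chromosome 11, 2608328 to 2699994 (GRCh38, minus strand), within the body of KCNQ1, a potassium channel gene on the plus strand. It had 89 reads in siControl and 31 in siCYP4F11, or 5.51 and 2.37 CPM, a log2 ratio of -1.20 (-1.85 to -0.61). With 4-fold as the bar, or with the interval wholly past 2-fold, it was no longer called.

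KCNQ1 itself had 3 reads in siControl and 0 in siCYP4F11. Neighbours of the region, named after their values were seen, were mostly at few reads or near a ratio of 0. CDKN1C, an imprinted cell cycle inhibitor, had 3 and 4 reads. PHLDA2, another imprinted gene there, had 146 and 102 reads, at -0.21 (-0.59 to 0.16), and SLC22A18, a transporter, had 263 and 209, at -0.02 (-0.29 to 0.24). The nearby CD81 and NAP1L4 were both at -0.10, with intervals that excluded 0 (-0.19 to -0.02 and -0.20 to -0.01).

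Of the 12 most abundant members, the interval excluded 0 for 2, FGD5-AS1 on the higher side and PLAC4 on the lower. That is 16.7%, against 26.1% of the 23 members over 500 reads and 42.4% of all genes with the count minimum. A share over all genes as deeply read as these 12 was not taken. FGD5-AS1, a spliced RNA studied in lung cancer, lies on chromosome 3 from 14920347 to 14948424, minus strand, and meets the 3' end of FGD5. It had 1198 reads in siControl and 1228 in siCYP4F11, or 74.2 and 94.1 CPM, at 0.34 (0.23 to 0.46). FGD5, a guanine exchange factor of endothelial cells, was listed at 0 reads in both libraries.

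PLAC4 lies on chromosome 21 from 41175231 to 41186788, minus strand, wholly inside BACE2, a membrane protease gene. It had 866 reads in siControl and 442 in siCYP4F11, or 53.6 and 33.9 CPM, at -0.66 (-0.83 to -0.50). BACE2 was lower by less, with 2268 and 1583 reads, at -0.21 (-0.31 to -0.12). Since all free bases of PLAC4 lie inside BACE2, unspliced BACE2 RNA in its count was not tested.

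The other 10 had intervals that included 0 and lay between -0.12 (RNASEH1-AS1) and 0.15 (DPP10-AS1). LUCAT1, an RNA induced by NRF2 and interferon in other cells, had 962 and 751 reads, at -0.05 (-0.19 to 0.09). THAP9-AS1 had 669 and 575 reads, at 0.09 (-0.08 to 0.25), and shares 10.4% of its 50-base words with other genes. NUTM2A-AS1, with 416 and 334 reads at -0.01, shares 51.6% of them, so its counts are less certain. Among the rest were ARRDC1-AS1 at 0.09, PSMA3-AS1 at 0.07, AL590666.2 at 0.09, HCG18 at -0.01 and AL365181.3 at -0.04 (-0.11 to 0.03).

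**Figure D3:**
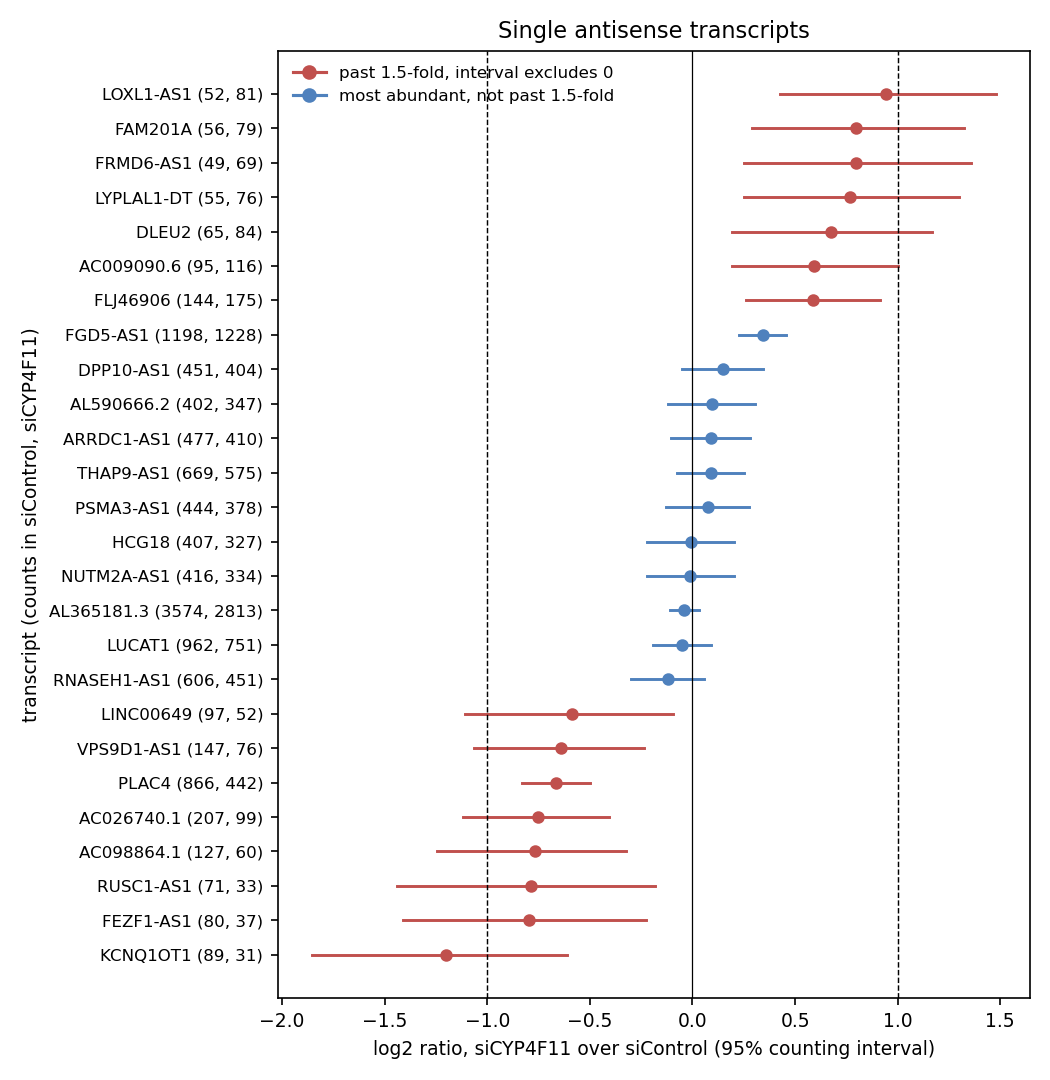
Log2 ratio with its 95% counting interval (horizontal axis) for the 15 antisense transcripts past 1.5-fold and for the most abundant ones not past it, with reads in siControl and siCYP4F11 beside each name and dashed lines at 2-fold. The interval of KCNQ1OT1, from -1.85 to -0.61, crosses the dashed line, and that of AL365181.3 is the narrowest.

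On the higher side at 1.5-fold, LOXL1-AS1 stood furthest out. It starts within LOXL1, a lysyl oxidase that crosslinks elastin, and runs the other way on chromosome 15 from 73908071 to 73928248, minus strand. It had 52 reads in siControl and 81 in siCYP4F11, at 0.94 (0.43 to 1.48), while LOXL1 had 154 and 130, at 0.06 (-0.29 to 0.41). DLEU2, which hosts the microRNAs miR-15a and miR-16 that hold back BCL2 and cell cycle genes, had 65 and 84 reads, at 0.67 (0.19 to 1.17). The poly-A libraries do not measure the mature microRNAs. Their sequences are shown, from RefSeq (GRCh38.p14), since they are the known products of this host, with the seed, bases 2 to 8, in capitals; it is the same in both.
hsa-miR-15a-5p: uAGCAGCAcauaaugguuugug
hsa-miR-16-5p: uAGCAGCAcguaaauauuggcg

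The remaining higher members were FAM201A, FRMD6-AS1, LYPLAL1-DT, AC009090.6 and FLJ46906, from 0.59 to 0.80, of which FRMD6-AS1, AC009090.6 and FLJ46906 were named after their values were seen. FRMD6-AS1 had 49 and 69 reads and shares 11.3% of its 50-base words with other genes. FLJ46906 had 144 reads in siControl and 175 in siCYP4F11, at 0.59 (0.26 to 0.92), and starts 23 bases from the start of NHSL1, which was at -0.15 (-0.31 to 0.00).

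On the lower side, besides KCNQ1OT1 and PLAC4, stood 6 members named after their values were seen. FEZF1-AS1, antisense to a neuronal zinc finger gene, had 80 and 37 reads, at -0.80 (-1.41 to -0.23), and RUSC1-AS1 had 71 and 33, at -0.79 (-1.44 to -0.18). RUSC1-AS1 overlaps FDPS, an enzyme of the mevalonate pathway, which was at 0.10 with 1754 and 1517 reads. AC098864.1 was at -0.77, AC026740.1 at -0.75, VPS9D1-AS1 at -0.64 and LINC00649 at -0.59. AC026740.1, an unspliced RNA inside TPPP, a gene for a tubulin-binding protein, had 207 and 99 reads, and TPPP was lower too, at -0.36 (-0.72 to -0.004). All free bases of AC026740.1 lie inside TPPP, and unspliced TPPP RNA in its count was not tested.

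Of 75 antisense or related RNAs listed for earlier study in cancer or development, 20 were members, and 26 more were antisense genes under the count minimum. HOTAIR, which lies in the HOXC cluster, had 8 and 1 reads. CDKN2B-AS1, of the CDKN2A and CDKN2B locus, was listed at 0 in both libraries, and AFAP1-AS1, often raised in lung tumours, had 6 and 3 reads. The interval of HOTAIR (-8.17 to 0.21) and that of AFAP1-AS1 (-3.32 to 1.53) included 0. Of the 26, 3 passed the size rule on few reads and were named after their values were seen. The share of all genes passing it at so few reads was not taken, so this count has no background beside it. ZEB2-AS1 had 11 and 1 reads, at -2.63 (-8.58 to -0.37), FOXP4-AS1 had 34 and 12, at -1.16 (-2.28 to -0.21), and ARHGAP5-AS1 had 16 and 28, at 1.09 (0.18 to 2.10).

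Among the listed members, the RNAs beside transcription factor genes were mixed. GATA2-AS1 lies on chromosome 3 from 128489212 to 128502348, plus strand, and overlaps the 5' end of GATA2, a blood and endothelial transcription factor. It had 161 reads in siControl and 99 in siCYP4F11, at -0.39 (-0.77 to -0.03). GATA2 had 249 and 133, at -0.60 (-0.91 to -0.29), so both were lower. NR2F1-AS1, beside a nuclear receptor gene, had 154 and 163 reads, at 0.39 (0.06 to 0.72), whereas NR2F1 was at -0.05 (-0.20 to 0.09). HOXA-AS2 was at -0.40 (-0.93 to 0.11) with HOXA3 at -0.38 (-0.71 to -0.06), and HOXB-AS3 at -0.18 (-0.54 to 0.18) with HOXB3 at 0.11 (-0.39 to 0.60).

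CYP1B1-AS1 overlaps the 5' end of CYP1B1, another cytochrome P450 gene, and the members of this pair lay on opposite sides of 0. The antisense RNA had 185 and 114 reads, at -0.39 (-0.74 to -0.05), and CYP1B1 had 4763 and 4123, at 0.10 (0.04 to 0.16). SREBF2-AS1, beside the gene for the sterol regulator SREBP2, had 57 and 43 reads, at -0.10 (-0.71 to 0.50), and SREBF2 was at -0.17 (-0.27 to -0.08). The other listed members had intervals that included 0: NUTM2B-AS1, THUMPD3-AS1, GABPB1-AS1, NNT-AS1, BOLA3-AS1, TMPO-AS1, SBF2-AS1 and MCM3AP-AS1, from -0.19 for GABPB1-AS1 to 0.37 for MCM3AP-AS1. Of these, NUTM2B-AS1 shares 22.3% of its 50-base words with other genes and NNT-AS1 12.5%.

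The 165 transcripts were then sorted by position relative to the opposite-strand protein-coding gene with the largest overlap, or the nearest where none overlapped. The starts lay within 1 kb of each other in 53 pairs, called a shared start region. The transcript lay inside the partner in 38 pairs, met its 3' end in 30, overlapped its 5' end over more than 1 kb in 21, contained it in 17 and did not overlap it in 6. The symbol of 83 transcripts names a protein-coding gene on the same chromosome, and in 71 this was the partner by position.

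Transcripts with a shared start region had a median log2 ratio of 0.09, with 32 of 53 above 0. Those inside the partner had a median of -0.10, with 17 of 38 above 0, and those containing it -0.13, with 6 of 17. Transcripts meeting the partner's 3' end were at -0.02 and those overlapping its 5' end at -0.03. The median GC content was 46.0% with a shared start region and 50.3% inside the partner. After the GC correction the medians were 0.10 with a shared start region, -0.05 inside the partner and -0.02 for transcripts containing it. The ranges overlapped widely, from -0.47 to 0.80 with a shared start region and from -1.20 to 0.80 inside the partner, and the difference between the position classes was not tested.

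**Figure D4:**
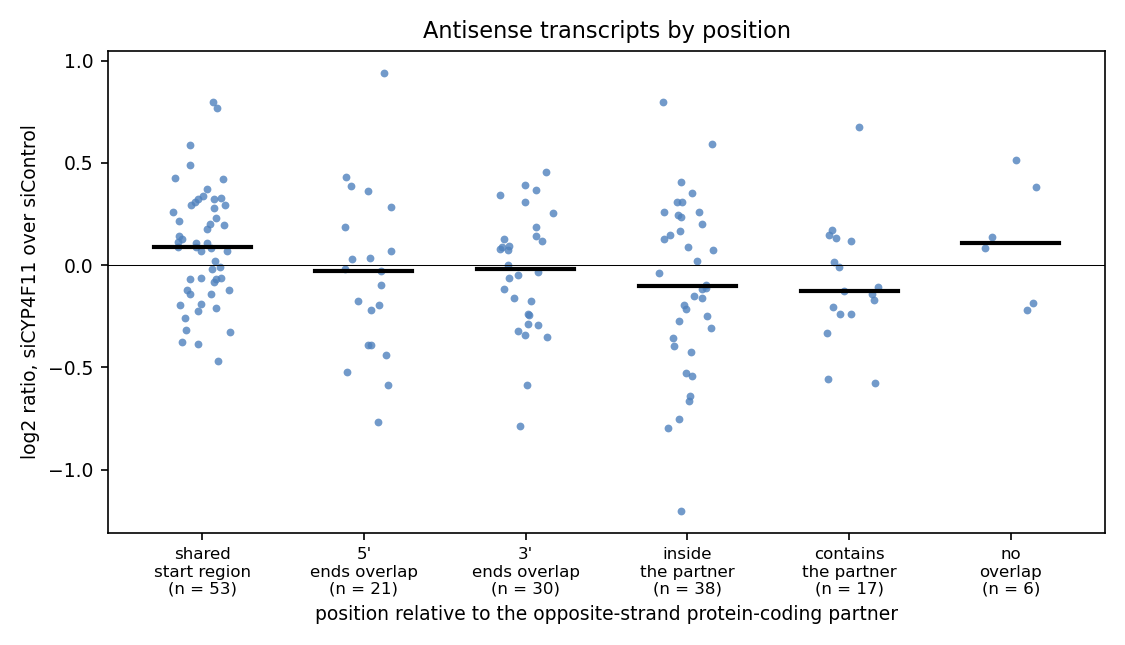
Log2 ratio of siCYP4F11 over siControl (vertical axis) for each of the 165 antisense transcripts (points) by position relative to the partner gene (horizontal axis), with a bar at the median of each class. The medians run from -0.13 for transcripts that contain the partner to 0.11 for the 6 without overlap, well within the spread of the points, and after the GC correction the -0.13 became -0.02.

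The partner had at least 100 reads in 138 pairs. Per kilobase of free exon the antisense transcript was below its partner in 105 of them and above it in 33. The median ratio was 0.376, with a middle 50% from 0.134 to 0.922. The other 27 pairs, whose partners had fewer reads, were left out. This minimum removes partners with few reads, so it leans the split and the ratio towards a higher partner. Among the 138, the transcript was below the partner in 43 of 51 pairs with a shared start region, and in 20 of 32 inside the partner. BOLA3-AS1, for example, starts 15 bases from BOLA3, a gene of iron-sulfur cluster assembly, and stood at 6.32 and 5.81 CPM per kilobase against 21.5 and 23.6. RNASEH1-AS1 went the other way, at 34.3 and 31.6 against 22.7 and 22.5 for RNASEH1, whose product cuts RNA paired with DNA.

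The ratios of transcript and partner were weakly related. Of the 138 pairs, 42 had both members above 0 and 44 both below, so 62.3% lay on the same side. After the GC correction 73 of 138 did, or 52.9%. The Pearson correlation across pairs was 0.21 and the Spearman correlation 0.23, given as descriptions, since all pairs share both libraries. After the GC correction these were 0.11 and 0.13. By position, without the GC correction, 27 of 51 pairs with a shared start region lay on the same side, with a Pearson correlation of -0.003. Inside the partner it was 19 of 32, with 0.12. The other classes were higher, on fewer pairs. They had 18 of 24 with overlapping 3' ends (0.26) and 12 of 19 with overlapping 5' ends (0.42). Transcripts containing the partner had 6 of 7 (0.53), and those without overlap 4 of 5 (0.65). Of the 13 pairs in which both intervals excluded 0, without the GC correction, 11 lay on the same side and 2 on opposite sides. In 5 of the 11 the transcript was mostly inside a partner body, where unspliced partner RNA in its count was not tested. The 8 pairs mostly outside had 6 on the same side and 2 on opposite sides.

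**Figure D5:**
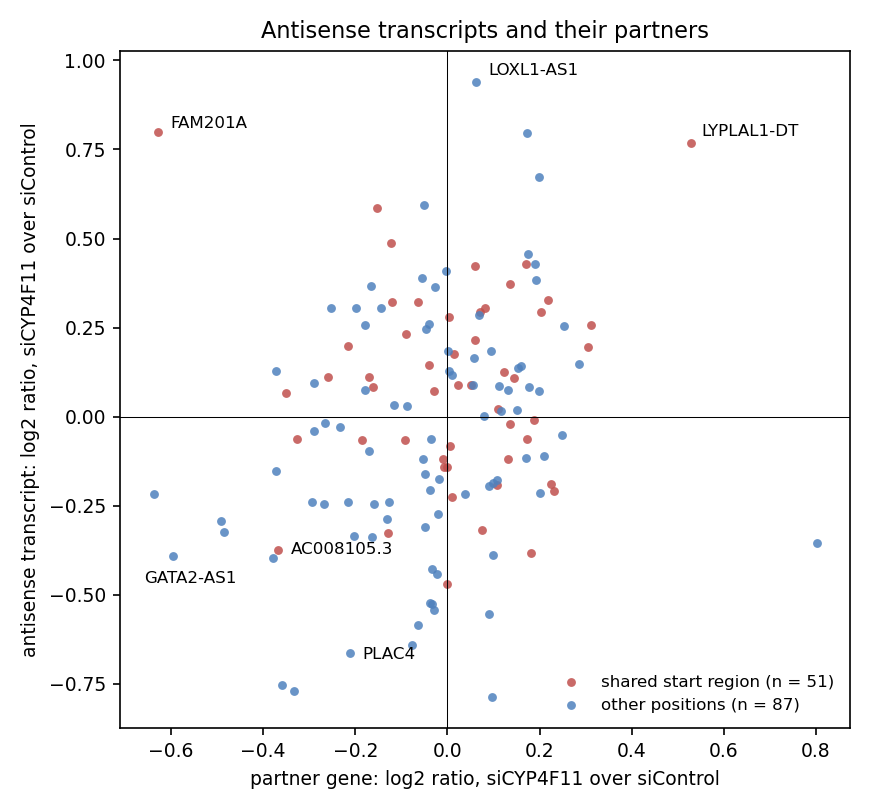
Log2 ratio of each antisense transcript (vertical axis) against that of its protein-coding partner (horizontal axis) for the 138 pairs whose partner had at least 100 reads, with shared start regions in red. LYPLAL1-DT and LYPLAL1 stand at upper right, FAM201A and ANKRD18A at upper left, and GATA2-AS1 and GATA2 at lower left.

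LYPLAL1-DT is divergent from LYPLAL1, a gene for a lysophospholipase-like enzyme, with starts 117 bases apart, and both were higher. The antisense RNA, on chromosome 1 from 219086602 to 219173961, minus strand, had 55 reads in siControl and 76 in siCYP4F11, at 0.77 (0.25 to 1.30). LYPLAL1 had 874 and 1020 reads, at 0.53 (0.40 to 0.66). AC008105.3 and FMNL1, a formin of the actin skeleton, were both lower, with 316 and 197 reads at -0.37 (-0.64 to -0.11) and 1624 and 1018 at -0.37 (-0.48 to -0.25). MAFG-DT and MAFG, a small MAF partner of NRF2, were both slightly higher, at 0.37 (0.06 to 0.69) and 0.13 (0.06 to 0.21). FAM201A went against ANKRD18A, with 56 and 79 reads at 0.80 (0.29 to 1.32) against 119 and 62 at -0.63 (-1.10 to -0.18), although their starts lie 186 bases apart. CFAP58-DT had 175 and 179 reads, at 0.34 (0.03 to 0.65), while CFAP58, a cilia and flagella protein gene 189 bases away, had 40 and 16, at -0.99 (-1.95 to -0.15). With under 100 reads CFAP58 is not among the 138 partners counted above.

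No partner with at least 100 reads was called by size. Below that, GJD3, a connexin gene contained in AC080112.1, had 5 and 16 reads, and AL355312.5, the partner of RAET1E-AS1, had 7 and 0. AC080112.1 was at -0.14 (-0.67 to 0.37) and RAET1E-AS1 at -0.20 (-0.67 to 0.26), so neither interval excluded 0. The furthest partner with at least 100 reads, named after its value was seen, was GLIPR1 at 0.80 (0.54 to 1.06) with 212 and 299 reads, and AC121761.1 inside it had 92 and 58, at -0.35 (-0.86 to 0.13).

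Promoter sequence was available from RefSeq (GRCh38.p14) for 77 of the 165, as windows of 300 bases from 250 before to 50 after the RefSeq start, which lay within 250 bases of the start used for counting in 55. The 5 motifs were searched on both strands, and none holds the letters of another. GGGCGG, the SP1 type, was in 50.6% of the 77 and in 45.0% of all 35116 windows in the table, and in 13 of 22 with a shared start region. CCAAT was in 40.3% against 34.6%, and TATAAA in 7.79% against 11.5%. CCGGAAGT, the ETS type, was in 3.90% against 4.14%, and the palindromic NRF1-type motif in 1.30% (1 window) against 1.24%. The median number of CG pairs in a window was 24 for the members and 14 for all windows. The members had passed a minimum of reads and the windows of all genes had not. Shares over expressed genes alone were not taken, so these contrasts are not specific to antisense transcripts.

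The windows of the pair LYPLAL1-DT and LYPLAL1 are shown because both genes were higher and start beside each other, and they share 189 bases. FGD5-AS1, GATA2-AS1 and LOXL1-AS1 are shown as chosen examples of members with intervals excluding 0 whose RefSeq start lies within 250 bases. Others that meet this, such as CFAP58-DT and NR2F1-AS1, are not shown. All are 5' to 3' on the gene's own strand, with matches to the motifs in capitals. They lie at chr1:219173739-219174038 (minus strand), chr1:219173628-219173927 (plus), chr3:14948392-14948691 (minus), chr3:128488953-128489252 (plus) and chr15:73928199-73928498 (minus).
LYPLAL1-DT: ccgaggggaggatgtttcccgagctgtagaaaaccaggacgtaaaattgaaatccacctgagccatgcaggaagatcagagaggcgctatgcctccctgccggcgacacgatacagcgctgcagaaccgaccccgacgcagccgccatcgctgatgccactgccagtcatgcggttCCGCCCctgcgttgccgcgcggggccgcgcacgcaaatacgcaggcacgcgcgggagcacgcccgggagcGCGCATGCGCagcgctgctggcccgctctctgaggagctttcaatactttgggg
LYPLAL1: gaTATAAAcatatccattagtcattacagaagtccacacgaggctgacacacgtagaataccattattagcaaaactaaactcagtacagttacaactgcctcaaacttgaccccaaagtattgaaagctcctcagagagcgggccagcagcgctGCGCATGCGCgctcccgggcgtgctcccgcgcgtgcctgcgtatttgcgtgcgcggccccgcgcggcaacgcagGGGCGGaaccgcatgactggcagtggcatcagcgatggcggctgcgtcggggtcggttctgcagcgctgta
FGD5-AS1: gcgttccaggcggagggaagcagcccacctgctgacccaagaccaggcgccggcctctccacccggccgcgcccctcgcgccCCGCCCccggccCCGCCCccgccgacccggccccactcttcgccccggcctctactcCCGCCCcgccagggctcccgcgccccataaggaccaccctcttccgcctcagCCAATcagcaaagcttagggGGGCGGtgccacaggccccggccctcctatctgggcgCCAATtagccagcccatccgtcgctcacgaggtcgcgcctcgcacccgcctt
GATA2-AS1: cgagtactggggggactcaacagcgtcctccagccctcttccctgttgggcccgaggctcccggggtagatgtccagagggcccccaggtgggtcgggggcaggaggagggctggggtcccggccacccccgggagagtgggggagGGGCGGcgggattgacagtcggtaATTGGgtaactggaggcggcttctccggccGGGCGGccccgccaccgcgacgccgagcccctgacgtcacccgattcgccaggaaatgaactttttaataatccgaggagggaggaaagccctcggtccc
LOXL1-AS1: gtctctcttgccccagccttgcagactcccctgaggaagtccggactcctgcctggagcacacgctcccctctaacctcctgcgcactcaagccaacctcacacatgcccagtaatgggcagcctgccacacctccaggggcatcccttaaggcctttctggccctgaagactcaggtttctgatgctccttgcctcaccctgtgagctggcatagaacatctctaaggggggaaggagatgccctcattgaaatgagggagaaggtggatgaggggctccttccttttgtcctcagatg

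The window of LYPLAL1-DT and that of LYPLAL1 hold the same NRF1-type match, read from either strand, and the same GGGCGG match, and that of LYPLAL1 also holds 1 TATAAA. FGD5-AS1 has 4 GGGCGG and 2 CCAAT matches, and GATA2-AS1 has 2 and 1. LOXL1-AS1 differs, with 0 matches and 3 CG pairs, against 32 in FGD5-AS1 and 33 in LYPLAL1-DT. A match is a description of letters and not a bound site.

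Genes that process, destroy or bind antisense and double-stranded RNA were examined from a list of 52 symbols. The table held 49 of these symbols, all with at least 100 reads (the fewest was 404). None was called by size. The median log2 ratio was -0.01, with 24 above 0 and 25 below, and intervals excluded 0 for 5 higher and 17 lower. That is 44.9% of the list, against 42.4% of all genes with the same minimum, 21.1% higher and 21.2% lower. These shares are at unlike depth, with a median of 1911 reads over both libraries for the list and 987.5 for all genes. The lower ones hold several genes of nonsense-mediated decay, such as SMG8 at -0.39 (-0.65 to -0.14) and SMG6 at -0.37 (-0.58 to -0.16). ZC3H18 and SRRT, which link the RNA cap to the exosome, were at -0.38 (-0.51 to -0.25) and -0.34 (-0.44 to -0.24). RBM7, of the nuclear exosome targeting complex, was highest at 0.47 (0.21 to 0.72), with 243 and 272 reads, followed by C1D, an exosome cofactor, at 0.32 (0.08 to 0.56). The exosome helicase MTREX was at 0.02 (-0.08 to 0.12) and the nuclease EXOSC10 at 0.03 (-0.12 to 0.17), with intervals that included 0. The median over this list was -0.09 after the GC correction.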

How the data were processed

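The authors deposited 1 table of whole-number read counts per gene for both libraries, not normalised, with the exon length of each gene in bases as another column. Libraries were poly-A selected and strand-specific (dUTP), per the labels' protocols. The tools listed, per the submitters' processing notes, are featureCounts 2.0.6, HISAT2 2.2.1, edgeR 4.0.16 and fastp, with build GRCh38 and with no roles or strand setting. All 58735 identifiers, coordinates, symbols and lengths equalled those of GENCODE release 29. The number of further sample columns was 0.

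The members, lists and rules were chosen with earlier results of these data known. Library sizes came from TMM (edgeR 4.0.16, R 4.3.3; factors 0.996 and 1.004). Log2 ratios were taken after adding 0.5 to each count, with 95% Clopper-Pearson intervals of the siCYP4F11 share. Without molecular identifiers, reads can be PCR copies, so intervals cover counting error only. A floor of 3 reads is 0.186 CPM in siControl and 0.230 CPM in siCYP4F11. edgeR's tests were not run, since they need replicates. Named members were those past the size rule, the 12 most abundant, those on the list of 75 studied RNAs, up to 3 pairs in each direction with a shared start region and both intervals excluding 0, and those whose partner passed the size rule. Word sharing was counted in 50-base words against all GENCODE transcripts. Alternatives were total counts, DESeq2 1.42.0 size factors, upper quartiles, 2 added to each count, other count minimums and folds, other partner rules, leaving out overlapped or word-sharing members, and a GC correction by lowess (span 0.3). Python 3.11.15, numpy 2.4.6, scipy 1.17.1, pandas 2.3.3, statsmodels 0.14.6 and matplotlib 3.10.9 were used.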

Additional observations from a re-analysis of the deposited data

How the results depend on the processing

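The number of antisense transcripts past the size rule was 1 in all and stayed 1, KCNQ1OT1, with other scalings, 2 added to each count, the GC correction and without members that share 50-base words. It depended on the count minimum and the bar. A minimum of 50 reads gave 8 of 316, a minimum of 200 gave 0 of 81, and no filter beyond 1 read gave 137 of 2705. Shares of all genes at these other minimums were not taken, so the 3 counts have no background beside them. A 1.5-fold bar gave 15, and 4-fold or an interval wholly past 2-fold gave 0. Without members whose exons overlap the other strand it was 0, as it was for members mostly outside a partner body, since KCNQ1OT1 is then left out. The members' median ranged from -0.04 with no filter to 0.03 for members mostly outside a partner body, the share of pairs on the same side from 52.9% with the GC correction to 66.0% without overlapped members, the list of RNA decay genes from -0.09 to -0.0009, and CYP4F11 from -1.40 to -1.34. The median level ratio to the partner was 0.372 with full exon lengths. Of 36 named members, 6 near 0 changed sign under 1 alternative each, 4 with the GC correction and 2 with total counts. Corrected for GC, AL365181.3 moved past its interval, to 0.05, and the cause was not tested. Splits by body share, symbol-named partners and full lengths were chosen after the data were seen. No paired analysis was possible because each group has 1 library. Depth limits the 142 members with 100 to 500 reads most.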
